A study of Mus musculus with 3 samples.

Results

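The genes described here are 31 mouse genes that interferons switch on, from the transcription factors that relay the signal (*Stat2*, *Irf1*, *Irf7*, *Irf9*) to the effectors they induce (the *Ifit* genes, *Isg15*, the *Oas* genes, *Gbp* genes, *Zbp1*, *Cxcl10*, *Ubd*, *Apol10a* and others). They were taken by symbol and filled 32 of the 28692 gene rows, because *Gbp6* has 2 rows. They were followed across 3 single-cell RNA libraries (10x Genomics 3' chemistry, version 3) made from crypts of the small intestine of adult C57BL/6 mice aged 2 to 3 months, which had been dissociated with TrypLE. Every library carried the allele Olfm4-IRES-eGFPCreERT2, in which *Olfm4*, a gene of crypt-base stem cells, drives a tamoxifen-inducible Cre; the labels give no tamoxifen schedule. In addition, the rescue library carried CDC42flox/flox with Yapflox/flox and Tazflox/+, the KO library carried CDC42flox/flox alone, and the control library (short name Het in the labels) carried CDC42+/flox, so that the control too has a floxed *Cdc42* allele. There was 1 library per genotype, and the sources used here do not give the number of animals behind each. No difference between genotypes could therefore be tested. Values are counts of unique molecular identifiers (UMIs) summed over the cells of a population and given as counts per 1000000 UMIs (CPM), and every interval is an exact 95% interval that covers counting error only.

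Interferons are secreted antiviral signals. Type I and type III interferons act through receptor-bound Janus kinases on a complex that holds STAT2 and IRF9 and binds the interferon-stimulated response element (ISRE) in front of their target genes, whereas interferon gamma acts mainly through the gamma-activated site (GAS). In the gut, type III interferon acts chiefly on epithelial cells, and interferon gamma comes largely from lymphocytes, including those lying within the epithelium.

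Cells were kept with 500 or more genes, 1000 or more UMIs and a mitochondrial share of at most 20%, which left 1897 rescue, 2036 KO and 1595 control barcodes. Epithelial cells (*Epcam* present, *Ptprc* absent, and more epithelial than leukocyte marker UMIs) numbered 804, 1573 and 550 in rescue, KO and control, with 40105429, 61609484 and 18629124 UMIs. They were divided, in this order and without overlap, into low-RNA cells (at least 1000 and fewer than 5000 UMIs; 121, 252 and 116 cells), *Lgr5*-positive cells (70, 17 and 151), cells with at least 2 *Mki67* UMIs (198, 204 and 43), *Fabp1*-high deep cells (at least 10000 UMIs and at least 5000 CPM of *Fabp1*; 159, 670 and 103) and the remaining deep cells. *Ptprc*-positive cells, that is leukocytes and any barcodes that hold leukocyte RNA, numbered 898, 339 and 980. The targeted gene *Cdc42* stood at 386 CPM in rescue, 384 CPM in KO and 249 CPM in control epithelium, so its count did not separate KO from control in the direction of a loss. Of the genes floxed in rescue only, *Yap1* stood at 20.4, 24.7 and 26.6 CPM in the same order. *Wwtr1*, which encodes TAZ, stood at 2.87, 13.4 and 7.35 CPM and was lowest in rescue. The sources used here do not give the exons that are lost, and reads from the 3' end of a transcript cannot check a loss that lies elsewhere in it. Rescue, KO and control therefore mean the libraries so labelled. At most 3 kept barcodes were shared by any pair of libraries.

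The promoters of these genes are shown first because they carry the sequence through which the pathway acts. A RefSeq promoter (build GRCm38.p6, 250 bases before to 50 after the start) was found for 24 of the 31 genes. An ISRE, searched as GAAANNGAAA on both strands, was present in 18 of those 24, against 3.99% of 27025 genes with a promoter. The genes without it in this window were *Irf1*, *Irf7*, *Irf9*, *Ifit2*, *Oasl2* and *Ubd*. A GAS, searched as TTCNNNGAA, was present in 7 of 24, against 9.55% of genes. Of the 6 promoters below, chosen because the results turn on these genes, 5 hold an ISRE and that of *Ubd* holds neither motif. Each is written 5′ to 3′ along the gene's own strand, with every base of an ISRE match in capitals. In *Isg15* 3 overlapping matches run together.
Isg15, chr4:156200769-156201068, minus strand: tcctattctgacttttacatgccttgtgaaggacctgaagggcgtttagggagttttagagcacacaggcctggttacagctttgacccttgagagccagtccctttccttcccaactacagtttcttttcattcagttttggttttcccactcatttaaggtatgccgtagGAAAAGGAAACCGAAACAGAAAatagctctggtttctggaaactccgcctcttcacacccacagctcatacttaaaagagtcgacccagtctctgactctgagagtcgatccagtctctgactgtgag
Ifit1, chr19:34640639-34640938, plus strand: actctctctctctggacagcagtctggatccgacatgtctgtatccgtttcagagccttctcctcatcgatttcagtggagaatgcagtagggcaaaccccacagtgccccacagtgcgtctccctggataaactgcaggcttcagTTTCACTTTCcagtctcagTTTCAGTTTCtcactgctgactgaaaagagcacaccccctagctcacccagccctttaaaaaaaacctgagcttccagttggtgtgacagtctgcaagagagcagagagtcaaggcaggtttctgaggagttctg
Ifit1bl1, chr19:34601919-34602218, minus strand: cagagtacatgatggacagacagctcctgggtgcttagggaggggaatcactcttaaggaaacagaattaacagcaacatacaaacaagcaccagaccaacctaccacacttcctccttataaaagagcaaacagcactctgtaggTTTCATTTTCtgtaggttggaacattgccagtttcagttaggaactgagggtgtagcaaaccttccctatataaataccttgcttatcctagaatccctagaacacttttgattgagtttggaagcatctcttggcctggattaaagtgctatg
Igtp, chr11:58199306-58199605, plus strand: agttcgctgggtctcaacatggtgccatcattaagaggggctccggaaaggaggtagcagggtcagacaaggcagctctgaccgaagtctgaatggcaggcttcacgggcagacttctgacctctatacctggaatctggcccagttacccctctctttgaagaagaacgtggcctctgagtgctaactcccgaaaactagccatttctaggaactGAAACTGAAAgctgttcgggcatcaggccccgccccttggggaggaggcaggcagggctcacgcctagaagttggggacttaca
Apol10a, chr15:77476797-77477096, plus strand: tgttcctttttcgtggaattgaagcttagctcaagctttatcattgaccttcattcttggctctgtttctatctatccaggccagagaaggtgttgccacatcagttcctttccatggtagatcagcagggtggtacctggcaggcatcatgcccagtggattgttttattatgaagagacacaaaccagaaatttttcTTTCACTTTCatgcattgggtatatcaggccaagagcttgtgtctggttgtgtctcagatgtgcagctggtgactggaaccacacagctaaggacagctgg
Ubd, chr17:37193642-37193941, plus strand: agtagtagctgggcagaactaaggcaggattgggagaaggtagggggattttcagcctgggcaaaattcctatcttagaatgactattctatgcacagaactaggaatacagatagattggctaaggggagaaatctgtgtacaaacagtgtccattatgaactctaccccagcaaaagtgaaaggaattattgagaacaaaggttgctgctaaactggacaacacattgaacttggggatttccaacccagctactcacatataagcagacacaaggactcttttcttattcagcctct

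The pair of ISREs in the *Ifit1* window lay 104 to 76 bases before its start, and 1 of the 2 RefSeq promoters of *Ifit1bl2* covers the same stretch on the opposite strand, so that it shares both matches; the other holds none. The match in the *Ifit1bl1* promoter printed above lay 104 to 95 bases, the *Isg15* matches 78 to 57 bases, the *Apol10a* match 51 to 42 bases and the *Igtp* match 34 to 25 bases before the start. A second *Ifit1bl1* promoter holds a match 23 to 14 bases before its own start. A match is a description of the letters and does not show that a factor binds there.

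Within each library these genes were counted more in the *Fabp1*-high cells than in the *Lgr5*-positive or *Mki67* cells. *Fabp1* encodes a fatty acid carrier of absorptive enterocytes. The 32 rows together made up 956 CPM in rescue, 590 CPM in KO and 887 CPM in control *Fabp1*-high cells, against 382, 214 and 232 CPM in *Mki67* cells and 290, 86.2 and 223 CPM in *Lgr5*-positive cells of the same libraries. The remaining deep cells had 627, 664 and 320 CPM. These sums too lay above those of *Mki67* and *Lgr5*-positive cells, and in KO above that of *Fabp1*-high cells, so the higher level was not particular to *Fabp1*-high cells. A gene was called measured with at least 20 UMIs in 1 of the sums compared, and past the fold with a log2 ratio of (CPM + 1) of at least 1 in size. In rescue, 18 of 27 measured genes were at least 2-fold higher in *Fabp1*-high than in *Mki67* cells, where 10.2% of all measured genes were. The KO library had 14 of 24, against 9.22% of all genes, and the control library 18 of 22, against 13.3%. Several of these genes reached 20 UMIs only in the *Fabp1*-high sum: 5 of the 18 in rescue, 4 of the 14 in KO and 14 of the 18 in control, where the *Mki67* sum came from 43 cells. With the minimum asked of the *Mki67* sum itself, a choice made after seeing the data, 13 of 22 genes in rescue (8.74% of all genes), 10 of 18 in KO (8.26%) and 4 of 6 in control (8.59%) were at least 2-fold higher in *Fabp1*-high cells. Set against *Lgr5*-positive cells, 18 of 26 genes were that much higher in rescue, against 16.5% of all genes, and 17 of 22 in control, against 17.8%. With the minimum asked of the *Lgr5*-positive sum they were 13 of 20 in rescue (13.4% of all genes) and 12 of 17 in control (15.3%). The KO library had only 17 *Lgr5*-positive cells, too few to read. The populations were defined by UMI depth and by marker genes that are not among the 31.

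*Isg15*, a ubiquitin-like protein that is attached to other proteins after interferon exposure, was 13.5-fold higher in *Fabp1*-high than in *Mki67* cells of the rescue library, 4.35-fold in KO and 39.5-fold in control. *Irf7*, the factor that amplifies type I interferon production, was 3.96-fold, 6.14-fold and 4.83-fold higher in the same order. *Bst2* (tetherin, which holds budding virus at the cell surface) ran the other way: its ratio was 0.755 in rescue, 0.798 in KO and 0.476 in control. *Cxcl10*, a chemokine that attracts T cells, was 3.09-fold higher in rescue and 5.25-fold in control but stood at 0.218 of the *Mki67* level in KO. In the KO *Mki67* cells 105 of its 252 UMIs lay in a single cell, and its control *Mki67* level rests on 15 UMIs.

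**Figure D1:**
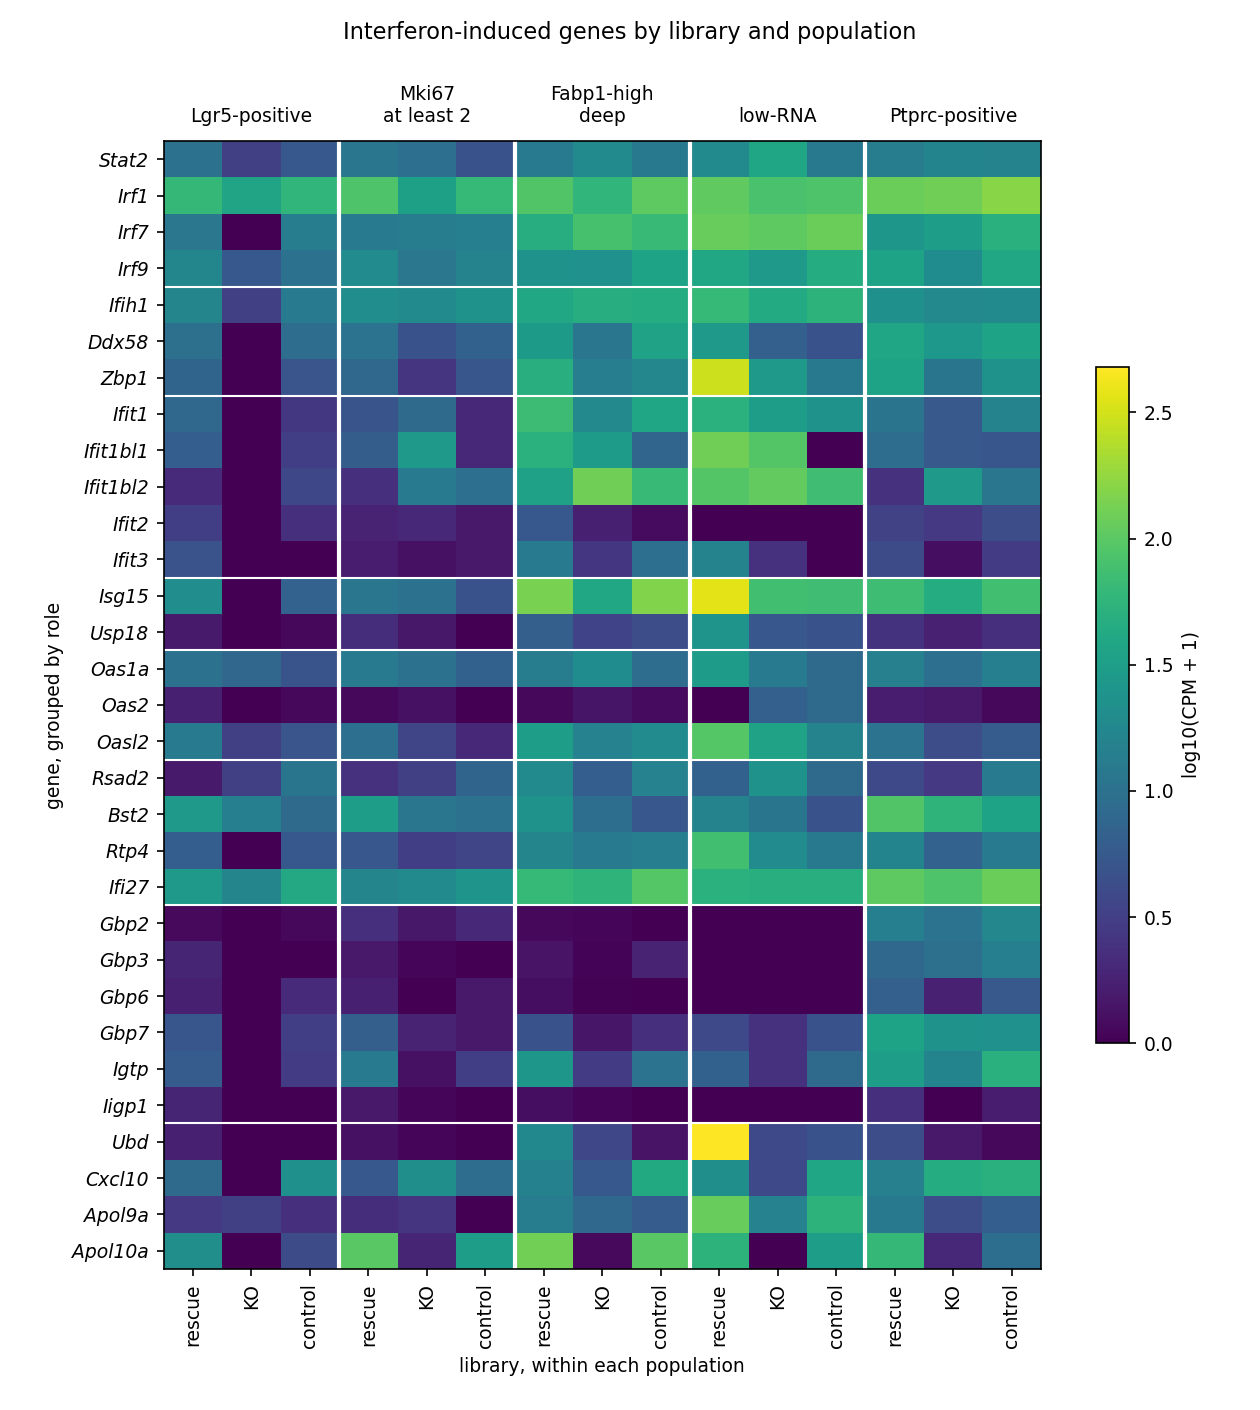
Levels of the interferon-induced genes as log10(CPM + 1), colour scale, with a row per gene, grouped by role, and a column per library within each of 5 populations (rescue, KO, control from left to right). In the rescue low-RNA column the tiles of *Ubd*, *Zbp1* and *Isg15* are the brightest, at 479, 300 and 371 CPM, and *Apol10a* is dark in every KO column.

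In the *Fabp1*-high cells, 14 of 26 measured genes were at least 2-fold higher in rescue than in KO, where 7.89% of all genes were, and 1 was at least 2-fold lower, where 8.63% were. The median log2 ratio of the 26 was 1.19, against 0.03 over all 10582 genes measured. KO against control had 3 of 25 genes higher (8.54% of all genes) and 8 lower (14.5%), with a median of -0.32 against -0.18 over all genes. There 14 of the 25 lay within 2-fold and 10 lay above 0, where 40.3% of all genes did. The share past 2-fold lower stood well above that of all genes, and the share past 2-fold higher slightly above it. Rescue against control had 8 of 26 higher (1.64% of all genes) and 1 lower (5.10%), with a median of 0.36 against -0.13. Of the genes counted as higher, 2 of 14 in rescue over KO, 1 of 3 in KO over control and 3 of 8 in rescue over control reached 20 UMIs only in the library where they were higher. Without the cell that held the most UMIs of the gene in each sum, a choice made after seeing the data, 11 of 14, 3 of 3 and 7 of 8 stayed past the fold; *Rsad2*, *Cxcl10* and *Oasl2* in rescue over KO and *Apol9a* in rescue over control did not. Such a cell also moved levels of genes that stayed past the fold by more than 1.5 times. Among these, without it *Ifit3* stood at 0.907 CPM in KO and 3.56 CPM in control, *Igtp* at 1.19 CPM in KO and *Ifit1bl1* at 3.56 CPM in control. *Ubd* then stood at 5.97 CPM in rescue, *Gbp7* at 0.593 CPM in control and *Ifit2* at 1.69 CPM in rescue. These comparisons share libraries, so they are not independent of each other.

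The relay factors differed by less than 2-fold. *Stat2* stood at 11.4 CPM in rescue, 17.7 CPM in KO and 11.2 CPM in control. *Irf1*, a target of interferon gamma, stood at 88.9, 56.7 and 104 CPM in the same order. *Irf7* stood at 45.4, 78.9 and 64.3 CPM and *Irf9*, the DNA-binding partner of STAT2, at 22.6, 21.6 and 34.9 CPM. None of the 4 was past the fold in any comparison of these cells, and *Stat2* and *Irf7* were highest in KO. Reads of *Irf9* cannot be told apart from those of the overlapping gene *Rnf31* where their exons coincide.

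The antiviral effectors separated the libraries further. *Isg15* had 139 CPM (131-148) in rescue, 39.9 CPM (37.9-42.1) in KO and 147 CPM (137-158) in control *Fabp1*-high cells. The KO level lay below both others, 3.49-fold (3.22-3.78) below rescue and 3.69-fold (3.37-4.03) below control. Without the highest cell of each library *Isg15* stood at 91.3 CPM in rescue, 33.1 CPM in KO and 115 CPM in control. The log2 ratios were then 1.44 in rescue over KO and -1.77 in KO over control, still past the fold. *Ifit1*, which binds viral RNA, had 68.1 CPM in rescue, 17.1 CPM in KO and 36.8 CPM in control, a rescue over KO ratio of 3.98 (3.53-4.48). *Ifit3*, a partner of the IFIT proteins, had 11.3, 1.64 and 8.62 CPM and was likewise lowest in KO, 6.86-fold (4.87-9.74) below rescue; its near copy *Ifit3b* may share its reads. *Rsad2* (viperin, which makes a chain-ending nucleotide) had 18.1, 5.29 and 14.5 CPM, 3.43-fold (2.73-4.29) higher in rescue than in KO, but 57 of its 140 rescue UMIs lay in 1 cell. Without the highest cell of each library *Rsad2* stood at 10.8 CPM in rescue and 4.93 CPM in KO, a log2 ratio of 0.99, which is no longer past the fold. *Ddx58*, which encodes the RNA sensor RIG-I, had 28.1, 10.3 and 34.1 CPM, and the KO level was 3.32-fold (2.76-3.99) below control. Its fellow sensor *Ifih1* (MDA5) had 38.3, 46.1 and 44.5 CPM and was past the fold nowhere.

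The *Ifit* genes lie together on chromosome 19, with *Ifit1* at 34640871-34650009 on the plus strand and *Ifit1bl1* at 34592891-34601956 and *Ifit1bl2* at 34617049-34640743 on the minus strand (GENCODE vM21 on GRCm38). The levels of the *Ifit1*-like genes did not follow those of *Ifit1*. *Ifit1bl1* had 50 CPM (45.1-55.2) in rescue, 28.9 CPM (27.1-30.7) in KO and 6.47 CPM (4.45-9.08) in control, so that both CDC42flox/flox libraries lay above the control, 7.72-fold (5.41-11.4) in rescue and 4.46-fold (3.16-6.52) in KO. *Ifit1bl2* had 33.0 CPM (29.1-37.3) in rescue, 125 CPM (121-128) in KO and 65.3 CPM (58.4-72.7) in control, with the KO highest and the rescue 3.78-fold (3.33-4.30) below it. These are close paralogs, and the sources used here do not say how reads that match several of them were counted. *Ifit2*, a further member of the family, had 4.53, 0.735 and 0.196 CPM, from 35, 26 and 1 UMIs. Without the highest cell of each library it stood at 1.69, 0.170 and 0 CPM.

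The widest gaps between rescue and KO in these cells were those of *Apol10a* and *Igtp*. *Apol10a*, an apolipoprotein L family member, had 128 CPM (120-136) in rescue, 0.170 CPM (0.0623-0.369) in KO and 98.2 CPM (89.8-107) in control. Its 6 UMIs among 670 KO cells put the KO 754-fold (345-2060) below rescue and 579-fold (264-1584) below control, while rescue and control were within 2-fold. *Igtp*, an interferon-gamma-inducible GTPase, had 25.5 CPM (22.1-29.3) in rescue, 1.90 CPM (1.47-2.41) in KO and 9.41 CPM (6.94-12.5) in control, which was 13.5-fold (10.1-18.0) higher in rescue than in KO. Its exons overlap those of *Irgm2* on the same strand. *Zbp1*, a sensor of Z-form nucleic acid that can trigger cell death, had 47.8 CPM (43.0-52.9) in rescue, 13.0 CPM (11.8-14.2) in KO and 16.5 CPM (13.1-20.4) in control, so that only the rescue stood apart, 3.68-fold (3.20-4.23) above KO and 2.90-fold (2.28-3.72) above control. *Gbp7*, a guanylate-binding protein, had 3.75, 0.453 and 1.37 CPM from 29, 16 and 7 UMIs. *Gbp2*, *Gbp3*, *Gbp6*, *Iigp1* and *Oas2* had 15 UMIs or fewer in each library and were not measured here.

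*Bst2* had 22.5 CPM (19.3-26.1) in rescue, 8.23 CPM (7.31-9.23) in KO and 4.31 CPM (2.70-6.53) in control, a rescue over control ratio of 5.22 (3.34-8.55). *Ubd*, which encodes the ubiquitin-like modifier FAT10, had 16.7 CPM (13.9-19.8), 2.74 CPM (2.22-3.35) and 0.392 CPM (0.0475-1.42), but 83 of its 129 rescue UMIs came from a single cell. *Cxcl10* was lowest in KO, with 14 CPM (11.5-16.9) in rescue, 4.47 CPM (3.80-5.22) in KO and 41.9 CPM (36.5-48.0) in control, and it was the only gene at least 2-fold lower in rescue than in control, 3.00-fold (2.37-3.82). In the oligoadenylate synthetase family, whose products switch on RNA cleavage, *Oas1a* had 12.7, 19.1 and 8.04 CPM and was 2.38-fold (1.73-3.34) higher in KO than in control. *Oasl2* had 30.3, 14.4 and 18.6 CPM and was 2.10-fold (1.79-2.46) higher in rescue than in KO. *Apol9a* had 12.4, 6.82 and 5.10 CPM, *Rtp4* (an inhibitor of flaviviruses) 15.8, 11.9 and 12.9 CPM, *Usp18* (the protease that removes ISG15 and damps interferon signalling) 5.56, 2.49 and 3.33 CPM, and *Ifi27* 61.2, 54.3 and 93.7 CPM. The near copies *Oas1g* and *Apol9b* may share reads with *Oas1a* and *Apol9a*.

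**Figure D2:**
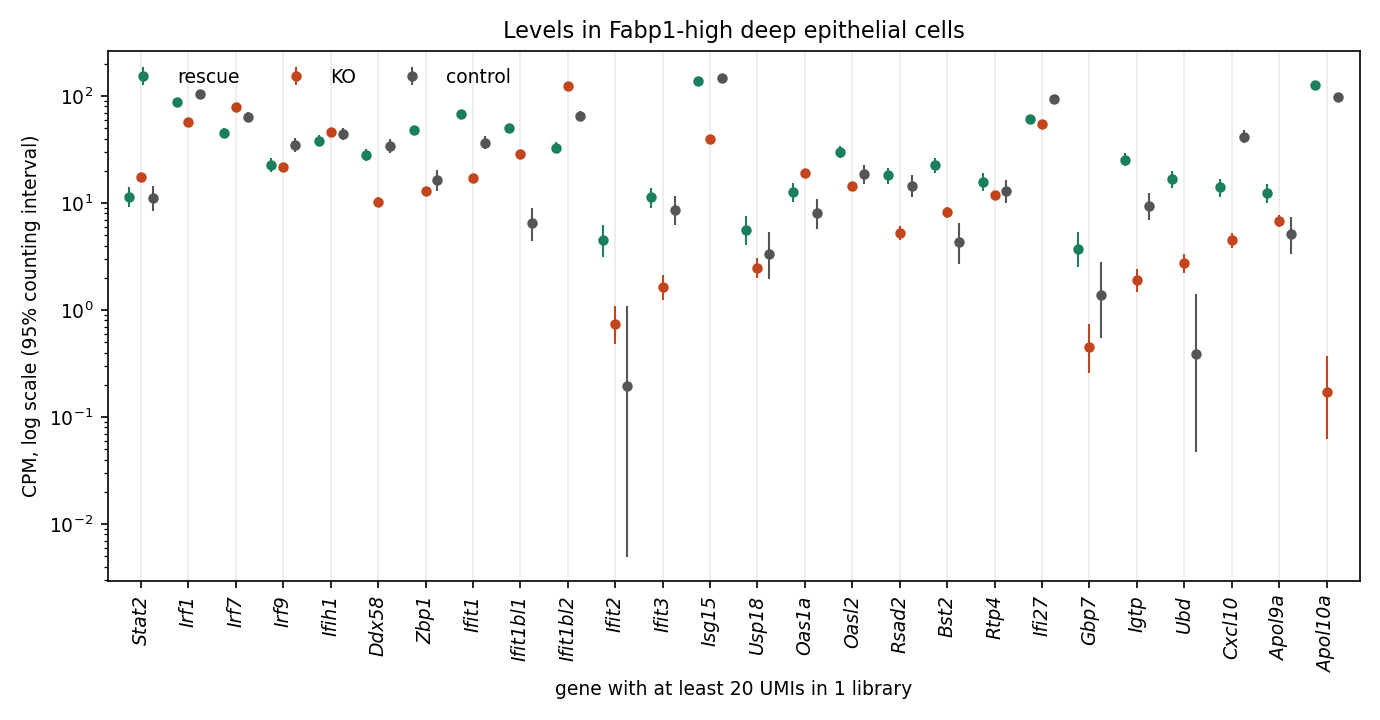
Levels in *Fabp1*-high deep cells as CPM on a log axis, with points for rescue (159 cells), KO (670 cells) and control (103 cells) and bars for the exact 95% counting interval, for the genes with at least 20 UMIs in 1 library. *Isg15* in KO, at 39.9 CPM, lies below rescue and control at 139 and 147 CPM, while *Ifit1bl2* is highest in KO at 125 CPM.

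The *Fabp1*-high cells of the libraries differed in more than these genes. Their median mitochondrial share was 14.9% in rescue, 9.72% in KO and 15.3% in control, and 4 of 159, 360 of 670 and 1 of 103 cells were at or below 10%. Restricted to cells with 10 to 20% mitochondrial UMIs (155, 310 and 102 cells), a choice made after seeing the data, rescue over KO had 12 genes higher (10.5% of all genes) and 2 lower (9.54%), with a median of 0.69 against 0.10 over all genes. KO over control then had 3 higher (9.34%) and 8 lower (17.7%), and rescue over control 5 higher (1.59%) and 2 lower (5.10%). How many of these genes reached 20 UMIs in only 1 of the libraries compared was not counted. *Isg15* then stood at 76.5, 32.6 and 147 CPM, *Zbp1* at 44.8, 16.4 and 16.5 CPM, *Igtp* at 25.2, 0.690 and 9.43 CPM and *Apol10a* at 129, 0.0627 and 98.0 CPM. *Ubd* turned round, to 1.83 CPM in rescue, 4.08 CPM in KO and 0.393 CPM in control. Of the marker lists, villus-tip genes summed to 3314 CPM in rescue, 14743 CPM in KO and 5068 CPM in control *Fabp1*-high cells, and within them *Ada* stood at 414, 4513 and 2.35 CPM. Genes of the dissociation response summed to 2742, 1097 and 4284 CPM. T cell markers summed to 39.9, 8.63 and 47.4 CPM, with *Cd3e* at 0.776, 0.141 and 1.57 CPM. The myeloid list summed to 388, 10.3 and 31.6 CPM, of which the MHC class II gene *H2-Ab1* made up 385, 4.36 and 26.7 CPM, while *C1qa* and *Csf1r* were at 0 in rescue and in control. Distal-intestine markers summed to 266, 1065 and 321 CPM, and goblet markers to 1155, 3006 and 92.3 CPM. The part of villus position, gut region, goblet content, dissociation and neighbouring immune cells in the differences was not tested.

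Low-RNA epithelial cells, with medians of 2718 UMIs in rescue, 2665 in KO and 1924.5 in control, held the highest levels of *Ubd*, *Isg15* and *Zbp1* among the populations compared, all in the rescue library. Summed over all 32 rows the level was 2276 CPM in rescue, 805 CPM in KO and 735 CPM in control. *Ubd* had 479 CPM (163 UMIs) in rescue, 2.86 CPM (2 UMIs) in KO and 3.75 CPM (1 UMI) in control, a ratio of 168 (45.7-1396) over KO and 128 (22.6-5080) over control. *Zbp1* had 300 CPM in rescue, 27.2 CPM in KO and 11.2 CPM in control, 11-fold (6.72-19.1) higher in rescue than in KO and 26.7-fold (8.87-131) higher than in control. *Isg15* had 371, 72.9 and 71.2 CPM, with KO and control close to each other and rescue 5.08-fold (3.64-7.18) above KO and 5.20-fold (3.20-8.93) above control.

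Of the remaining genes in these cells, *Apol9a* (112 CPM in rescue, 14.3 in KO, 52.5 in control), *Oasl2* (94.1, 34.3 and 15 CPM) and *Rtp4* (73.5, 18.6 and 11.2 CPM) were also past the fold in rescue over both other libraries. *Ifit1bl1* had 124 CPM in rescue and 90.1 CPM in KO but no UMI in control, which makes it at least 11-fold higher in rescue and at least 8.01-fold higher in KO, with the control floor set at 3 counts over the group. *Irf7* (112, 104 and 120 CPM), *Irf1* (106, 80.1 and 86.2 CPM) and *Ifi27* (50, 48.6 and 48.7 CPM) did not separate the libraries. No share of the genes past the fold is given for these cells, because 9 of the 11 genes measured between rescue and control and 4 of the 14 between rescue and KO reached 20 UMIs only in rescue. The counts here are small, and a 2-fold difference at 20 UMIs lies within the counting interval for some genes.

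The low-RNA cells also differed in kind between libraries. Enterocyte markers summed to 60180 CPM in rescue, 39726 CPM in KO and 17485 CPM in control, goblet markers to 11214, 47236 and 28221 CPM, and T cell markers to 135, 31.5 and 304 CPM. Their median mitochondrial share was 6.88%, 13.3% and 11.7%. Split at 10%, *Ubd* stood at 573 CPM in the 85 rescue cells at or below it and at 175 CPM in the 36 above it, against 0 and 4.17 CPM in KO and 9.10 and 0 CPM in control. *Zbp1* stood at 338 and 175 CPM in rescue, against 27.3 and 27.1 CPM in KO and 18.2 and 6.38 CPM in control, so both genes were highest in rescue on either side of the split. At an equal depth of 1000 UMIs a cell, *Ubd* was found in 25.6% (18.1-34.4) of rescue, 0.397% (0.0100-2.19) of KO and 0.862% (0.0218-4.71) of control low-RNA cells, and without thinning in 30.6%, 0.397% and 0.862%. In *Ptprc*-positive cells thinned alike (medians before thinning 5153, 5492 and 5242.5 UMIs) the share was 0.557% in rescue, 0% (up to 1.08) of 339 KO cells and 0% (up to 0.376) of 980 control cells. *Zbp1* was found in 28.1% (20.3-37.0), 3.17% (1.38-6.16) and 0.862% (0.0218-4.71) of low-RNA cells, and *Isg15* in 20.7% (13.8-29.0), 6.35% (3.67-10.1) and 6.03% (2.46-12.0).

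**Figure D3:**
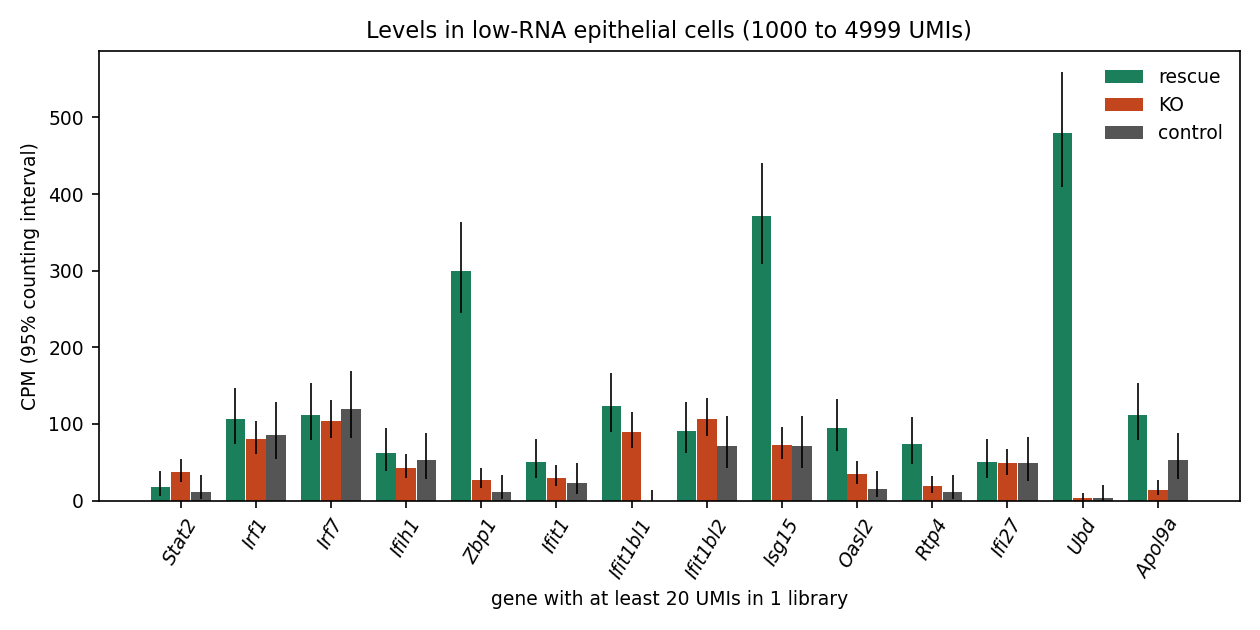
Levels in low-RNA epithelial cells as CPM, with bars for rescue (121 cells), KO (252 cells) and control (116 cells) and the exact 95% counting interval, for genes with at least 20 UMIs in 1 library. *Ubd*, *Isg15* and *Zbp1* reach 479, 371 and 300 CPM in rescue, whereas *Irf7* and *Ifi27* are level across the libraries.

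In cycling cells, those with at least 2 *Mki67* UMIs, 8 of 22 measured genes were at least 2-fold higher in rescue than in KO, against 4.07% of all genes, and 3 were lower, against 6.16%. Of these 8 genes, 3 reached 20 UMIs only in rescue. Between rescue and control 16 of 22 measured genes reached that minimum only in rescue, so no share is given. *Apol10a* had 98.1 CPM in rescue, 0.893 CPM in KO and 29.8 CPM in control, and *Igtp* 11.6, 0.325 and 2.13 CPM. *Irf1* had 86.8, 32.2 and 61.8 CPM, 2.69-fold (2.40-3.02) higher in rescue than in KO, and *Bst2* had 29.8, 10.3 and 9.05 CPM. *Ifit1bl1* was highest in KO, with 5.18 CPM in rescue, 26.9 CPM in KO and 1.06 CPM in control, and so was *Cxcl10*, with 4.52, 20.5 and 7.99 CPM. *Isg15* was low in all, at 10.3, 9.18 and 3.73 CPM, the last from 7 UMIs in 43 cells. The *Mki67* cells also differed in other markers. Enterocyte markers summed to 2220 CPM in rescue, 9643 CPM in KO and 4946 CPM in control, Paneth markers to 178, 101 and 2155 CPM, and stromal markers to 0.590, 98.2 and 1.06 CPM. The myeloid list summed to 147, 7.15 and 7.45 CPM, of which *H2-Ab1* made up 140, 0.569 and 2.13 CPM. Their median mitochondrial share was 11%, 7.82% and 11.3%. The part of these in the differences was not tested.

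*Lgr5*-positive cells could be compared only between rescue and control. There 8 of 22 measured genes were at least 2-fold higher in rescue, against 3.38% of all genes, and 2 were lower, against 4.34%. Of the 8 higher genes 3 reached 20 UMIs only in rescue, and without the highest cell of each gene 3 of the 8 stayed past the fold. *Apol10a* had 20.3 CPM in rescue and 3.13 CPM in control, a ratio of 6.50 (4.09-10.8), but 41 of its 112 rescue UMIs lay in 1 cell, without which the rescue stood at 13.4 CPM. *Bst2* had 27.4 and 7.40 CPM, a ratio of 3.71 (2.69-5.18). *Isg15* had 19.4 CPM in rescue and 5.98 CPM in control, yet 63 of its 107 rescue UMIs lay in a single cell. *Rsad2* had 0.545 CPM in rescue and 9.97 CPM in control, and *Cxcl10* had 7.45 and 21.4 CPM, 2.87-fold (2.02-4.16) lower in rescue. Cycling markers summed to 1093 CPM in rescue and 183 CPM in control *Lgr5*-positive cells, with *Mki67* at 161 and 37.3 CPM. Paneth markers summed to 72127 and 117705 CPM, against 1147 and 1709 CPM for stem cell markers, so these cells cannot be read as stem cells alone. Goblet markers summed to 1294 and 5350 CPM and the myeloid list to 275 and 25.1 CPM, with *H2-Ab1* at 267 and 18.5 CPM and *Csf1r* at 0 in both. The part of this difference in composition was not tested.

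Summed over all epithelial cells, rescue over control had 9 of 30 measured genes at least 2-fold higher, against 1.93% of all genes, and 3 lower, against 7.49%. KO over control had 6 of 28 higher, against 8.03% of all genes, and 4 lower, against 18.0%. Rescue over KO had 5 of 30 higher, against 12.4%, and 2 lower, against 7.74%, so here the shares were near the background. Over all genes the median log2 ratio was -0.28 in KO over control and 0.25 in rescue over KO. With libraries scaled by the median ratio of genes instead of by total UMIs, KO over control had 8 higher (13.0% of all genes) and 2 lower (11.6%). Rescue over KO then had 5 higher (6.22%) and 4 lower (11.8%). *Apol10a* stood at 124 CPM in rescue, 0.357 CPM in KO and 33.4 CPM in control, and *Igtp* at 13.3, 1.36 and 3.81 CPM. *Ifit1bl2* stood at 8.65, 89.6 and 21.5 CPM, with the rescue 10.4-fold (9.29-11.6) below KO, and *Irf7* at 21.0, 70.2 and 30.9 CPM, with the rescue 3.34-fold (3.1-3.60) below KO. *Bst2* stood at 28.1, 10.7 and 7.09 CPM, highest in rescue. *Isg15*, at 43.6, 36.5 and 44.7 CPM, lay within 2-fold between the libraries over all epithelium. This sum joins cells that differed in opposite directions. In the remaining deep cells *Isg15* was highest in KO, at 24.9, 52.8 and 2.98 CPM (281, 675 and 13 UMIs), whereas in *Fabp1*-high cells it was lowest there. *Fabp1*-high cells were 159 of 804 epithelial cells in rescue, 670 of 1573 in KO and 103 of 550 in control. Over all epithelium Paneth markers summed to 14054, 884 and 80554 CPM.

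**Figure D4:**
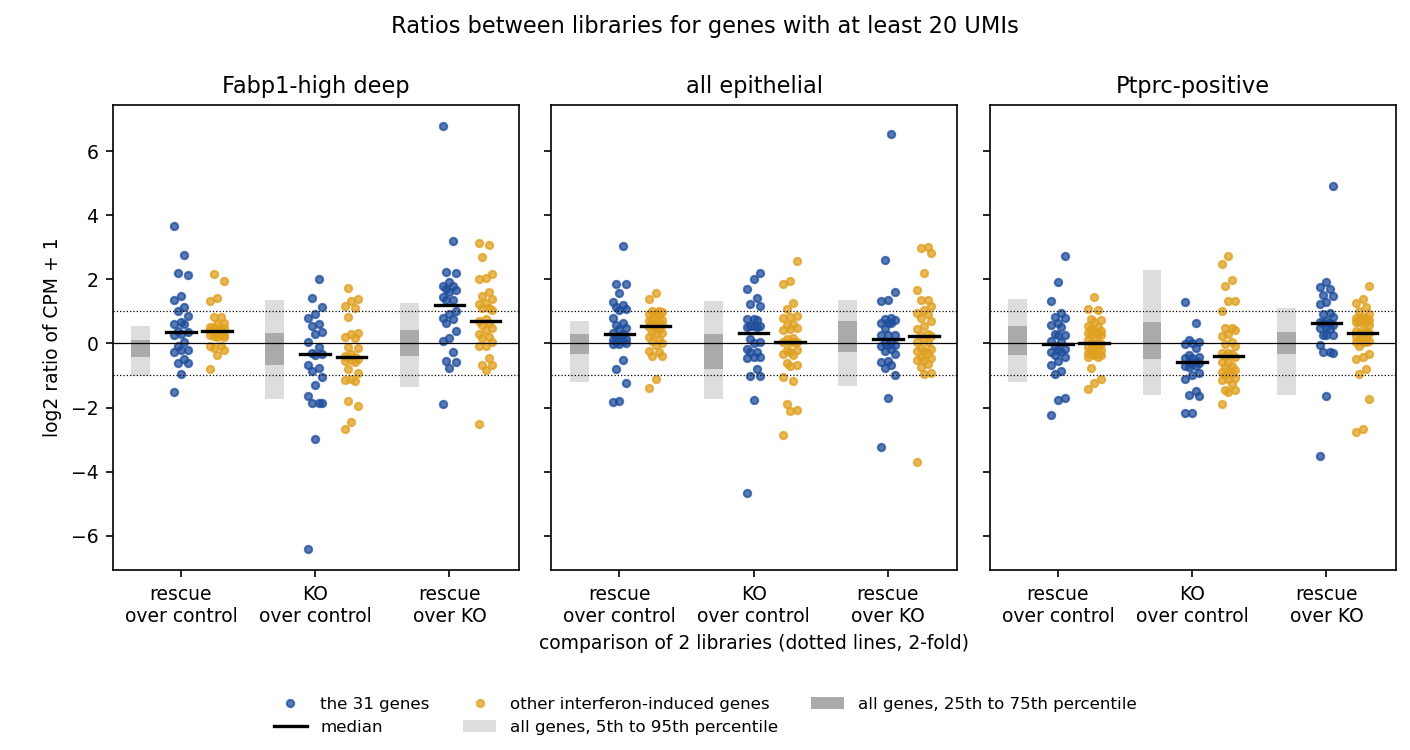
Log2 ratio of (CPM + 1) between libraries for each of the 31 genes (blue points) and for 44 other interferon-induced genes (orange points) with at least 20 UMIs, in 3 populations; black bars are medians, grey boxes span the 5th to 95th and 25th to 75th percentiles of all measured genes, and dotted lines mark 2-fold. The blue median for rescue over KO in *Fabp1*-high cells lies at 1.19, and *Apol10a* is the point farthest out at 6.78.

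In *Ptprc*-positive cells, rescue over control had 3 of 28 measured genes at least 2-fold higher (10.9% of all genes), 3 lower (7.29%) and a median log2 ratio of -0.01 against 0.09 over all genes. Over the other settings tried the counts ran between 2 and 9 higher and between 0 and 4 lower. The shares of all genes ran between 5.30% and 11.8% higher and between 4.27% and 8.28% lower. KO over control had 1 of 26 higher (16.8%) and 7 lower (12.0%), with a median of -0.59 against 0.06 over all genes, and rescue over KO had 8 of 28 higher (5.92%) and 2 lower (9.14%), with a median of 0.64 against 0.03. Of the 8 higher in rescue over KO 6 reached 20 UMIs only in rescue, and of the 7 lower in KO over control 4 reached it only in control. *Zbp1* stood at 34.9 CPM in rescue, 10.0 CPM in KO and 22.9 CPM in control, and *Igtp* at 30.3, 15.4 and 49.1 CPM. *Bst2* stood at 88.4, 54.6 and 34.6 CPM, 2.55-fold (2.20-2.97) higher in rescue than in control. *Cxcl10* stood at 13.6, 44.4 and 49.1 CPM and was 3.60-fold (2.93-4.46) lower in rescue than in control. *Gbp2* and *Gbp3*, hardly counted in epithelium, reached 13.4, 9.49 and 16.3 CPM and 6.97, 8.72 and 13.5 CPM.

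The composition of this fraction differed. T cell markers summed to 26288 CPM in rescue, 12908 CPM in KO and 41505 CPM in control, myeloid markers to 1537, 11108 and 1136 CPM, plasma and B cell markers to 1582, 5265 and 76.7 CPM, Paneth markers to 9512, 96.5 and 32912 CPM, and *Epcam* stood at 1019, 1023 and 437 CPM. Restricted to cells with a *Cd3e*, *Cd3g* or *Cd3d* UMI and more immune than epithelial marker UMIs (767, 203 and 929 cells), a choice made after seeing the data, rescue over control had 9 of 24 genes higher (5.73% of all genes) and 0 lower (7.37%). There *Isg15* stood at 137 CPM in rescue, 91.0 CPM in KO and 72.7 CPM in control, *Zbp1* at 59.9, 23.7 and 25.9 CPM and *Bst2* at 68.0, 34.6 and 29.7 CPM. *Apol10a*, at 59.5, 1.03 and 8.20 CPM over all *Ptprc*-positive cells, stood at 3.57, 0 and 3.61 CPM among those T cells.

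Per cell, the sum over the 31 genes was unevenly spread. With *Fabp1*-high cells thinned to 10000 UMIs, the median sum was 6.00 UMIs in rescue, 5 in KO and 7 in control, the 90th percentile 12.0, 11 and 16.8, and the highest cell 387, 126 and 89. In rescue the highest cell held 373 of the 1077 *Isg15* UMIs before thinning, and without it *Isg15* fell to 91.3 CPM, against 139 CPM with it. A single cell likewise held 100 of the 214 *Cxcl10* UMIs in control, without which the level was 22.6 CPM, against 41.9 CPM. At equal depth *Isg15* was found in 28.9% (22.0-36.6) of rescue, 16.0% (13.3-19.0) of KO and 40.8% (31.2-50.9) of control *Fabp1*-high cells, *Zbp1* in 28.9% (22.0-36.6), 10.1% (7.97-12.7) and 12.6% (6.89-20.6), and *Apol10a* in 59.7% (51.7-67.4), 0.149% (0.00378-0.829) and 52.4% (42.4-62.4). Without thinning these shares were 57.2%, 42.5% and 69.9% for *Isg15*, 78.6%, 31.3% and 35.0% for *Zbp1* and 89.3%, 0.896% and 90.3% for *Apol10a*. *Ubd* was found in 1.89% (0.391-5.41), 2.99% (1.83-4.57) and 0% (up to 3.52), so its shares did not follow its summed level.

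**Figure D5:**
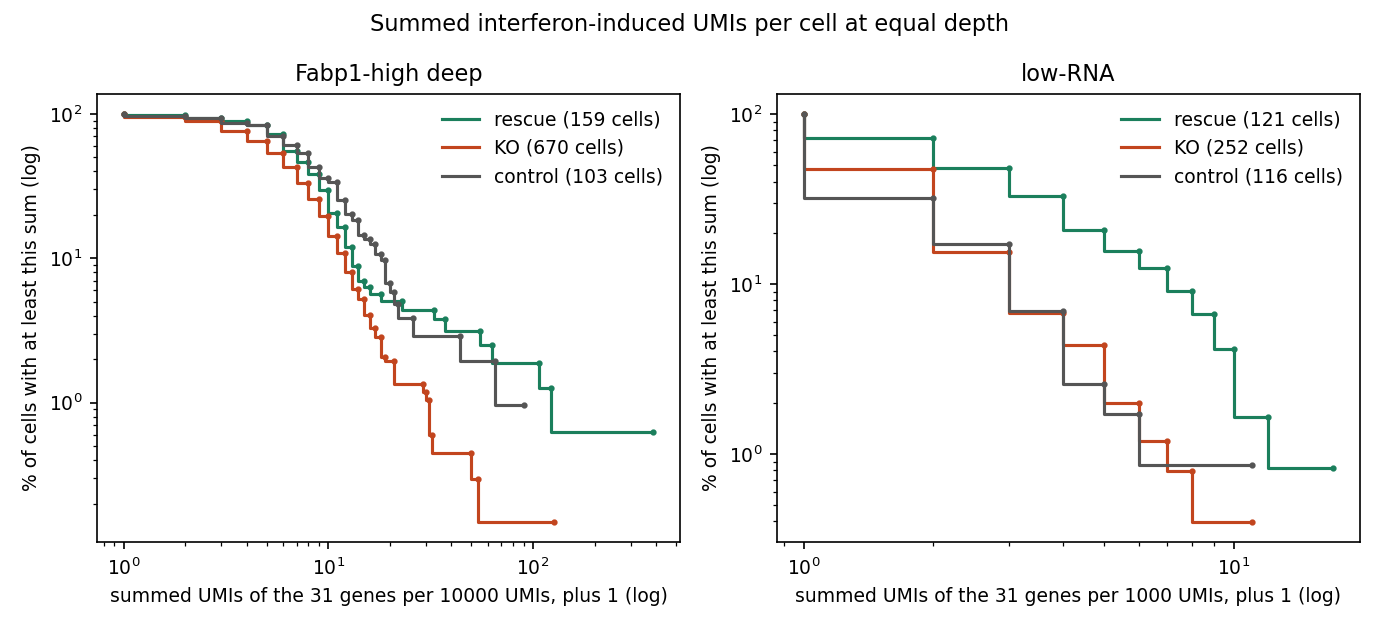
Share of cells (%, log axis) whose summed UMIs of the 31 genes reach the value on the x axis (plus 1, log axis), for *Fabp1*-high cells thinned to 10000 UMIs and low-RNA cells thinned to 1000 UMIs, with a line per library. In *Fabp1*-high cells the lines run close together up to the 90th percentiles of 12.0, 11 and 16.8 UMIs and end at 387 in rescue, 126 in KO and 89 in control, while in low-RNA cells the rescue line lies to the right throughout.

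Across single cells the 31 genes were weakly correlated with each other. Over pairs of genes found in at least 10% of thinned *Fabp1*-high cells, the median Pearson correlation across cells was 0.160 in rescue (136 pairs of 17 genes), 0.070 in KO (78 pairs of 13 genes) and 0.10 in control (105 pairs of 15 genes). In the same order 37, 1 and 13 pairs stood at 0.3 or above. The medians are thus not over the same pairs. The closest pair in rescue was *Ifit1bl1* and *Ifit1*, at 0.69. All pairs share the cells and their library, and correlations in such sparse counts are given as a description. Outside the 31, the genes most correlated with their sum were *Ada* (0.48), *Slfn2* (0.45), *Oasl1* (0.44), *H2-T22* (0.42) and *Sepp1* (0.42) in rescue, *Apob* (0.42), *Cyp3a13* (0.41), *Apoa1* (0.40), *B2m* (0.37) and *Ada* (0.36) in KO, and *Apob* (0.56), *Sepp1* (0.54), *Apoa4* (0.54), *Apoa1* (0.52) and *B2m* (0.51) in control.

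The rest of the pathway was read from lists of its genes. Of 9 interferon ligands 0 were measured in epithelium, where *Ifnb1*, *Ifna1*, *Ifna2* and *Ifna4* had no UMI in any library. In *Ptprc*-positive cells *Ifng* stood at 22.3 CPM in rescue, 7.70 CPM in KO and 19.6 CPM in control, and *Ifnb1* at 0, 2.82 and 0 CPM. All 6 receptor genes were measured in epithelium and 0 were past the fold in any comparison: *Ifnar1* stood at 13.8, 17.9 and 12.1 CPM, *Ifnar2* at 7.13, 8.49 and 7.25 CPM, and *Ifnlr1*, the receptor chain particular to type III interferon, at 3.17, 6.40 and 3.49 CPM. The interferon gamma receptor genes *Ifngr1* and *Ifngr2* stood at 101, 157 and 110 CPM and at 82.2, 140 and 99.1 CPM, and *Il10rb* at 46.3, 61.7 and 32.4 CPM. Likewise 0 of the 4 kinase and STAT genes *Jak1*, *Jak2*, *Tyk2* and *Stat3* were past the fold in epithelium, with *Jak1* at 61.5, 74.6 and 73.6 CPM, *Jak2* at 29.3, 53.4 and 41.1 CPM, *Tyk2* at 9.45, 13.6 and 6.39 CPM and *Stat3* at 42.5, 57.6 and 31.2 CPM.

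Of 44 other interferon-induced genes, 31 were measured in *Fabp1*-high cells between rescue and KO, where 14 were at least 2-fold higher in rescue (7.89% of all genes) and 1 lower (8.63%), with a median log2 ratio of 0.69 against 0.03 over all genes. The GTPases *Ifi47* (17.2 CPM in rescue, 1.07 in KO, 12.2 in control) and *Irgm1* (9.32, 0.594 and 7.64 CPM) were low in KO like *Igtp*, whereas *Oasl1* was highest there (44.1, 258 and 77.0 CPM). KO over control had 5 of 29 higher (8.54% of all genes) and 7 lower (14.5%) in those cells, and rescue over control 4 of 29 higher (1.64%) and 0 lower (5.10%). Over all epithelium *Oasl1* (17.2, 233 and 38.6 CPM) and *Oas3* (3.14, 6.95 and 1.07 CPM) were the highest in KO over control and *Ifitm3* (217, 26.8 and 200 CPM) and *Ifi47* (17.2, 1.56 and 10.1 CPM) the lowest. In rescue over control *Irgm2* (6.96, 0.747 and 1.66 CPM) and *Trim30a* (1.92, 0.146 and 0.107 CPM) were the highest and *Isg20* (2.64, 3.33 and 8.64 CPM) and *Oasl1* the lowest. *Trim30a* reached the UMI minimum only in rescue. Among the negative regulators, *Socs1* stood at 7.88, 1.92 and 6.23 CPM and *Ptpn2* at 35.6, 18.0 and 38.7 CPM, both at least 2-fold lower in KO than in control, and 0 of 6 were past the fold between rescue and control. Among 9 nucleic acid sensing genes, *Aim2* (1.80, 10.4 and 0.590 CPM) and *Trim25* (39.2, 92.4 and 40.4 CPM) were at least 2-fold higher in KO than in control and *Mb21d1* (6.03, 1.87 and 6.87 CPM) was lower. Of 5 other interferon regulatory factors only *Irf8*, at 101, 34.2 and 55.3 CPM, was past the fold in epithelium, between rescue and KO.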

How the data were processed

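The deposited matrices hold raw UMI counts per gene and barcode as the authors' Cell Ranger runs wrote them, version 3.1.0 for rescue and 3.0.2 for KO and control per the file headers, whereas the submitters' processing notes name 1.3.0. No genome build is named (not given in the sources used here). Positions came from GENCODE vM21, which held 28416 of the 28692 gene identifiers. The tables held 3449 rescue, 4786 KO and 6152 control barcodes, and filters removed no doublets (an alternative removed 29, 33 and 20). Whether counting used strand is not given, so reads of *Irf1*, *Irf7*, *Cxcl10* and *Usp18* cannot be told apart from those of genes overlapping them on the other strand.

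Counts were summed per library and population with Python 3.11.15 (numpy 2.4.6, scipy 1.17.1, pandas 2.3.3, scikit-learn 1.9.0, matplotlib 3.10.9). CPM had exact Poisson intervals and ratios conditional exact binomial intervals; the computation of ratios was tested on simulated data. Log2 ratios used a pseudocount of 1 CPM. At 20 UMIs the counting interval spans more than 2-fold, and deeper sums are tighter. For shares of cells, each cell was thinned to a fixed number of UMIs. Named were all 31 genes by role, the ligands, receptors and kinases, the 2 highest and 2 lowest genes of the other pathway lists or fewer, and the 5 genes most correlated with the summed genes per library. Of the pathway lists, 1 gene is not reported here. The genes and lists were chosen with earlier results of these data known. Further genes were named after their values were seen, among them *H2-Ab1*, *Ada*, *C1qa*, *Csf1r*, *Irgm1* and *Irf8*.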

Additional observations from a re-analysis of the deposited data

Results flagged for a closer look

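For 3 genes the libraries differed in opposite directions, both past 2-fold, between *Mki67*, *Fabp1*-high, low-RNA, *Ptprc*-positive and *Lgr5*-positive cells. The KO *Lgr5*-positive cells and the remaining deep cells of all libraries were not searched, so the list is not complete. In the remaining deep cells *Zbp1* stood at 20.5 CPM in KO and 6.65 CPM in control, against 10.0 and 22.9 CPM in *Ptprc*-positive cells. *Isg15* stood there at 52.8 CPM in KO and 2.98 CPM (13 UMIs) in control. With 1 library per genotype these contrasts were not tested, and each value below is the log2 ratio in the population named first minus that in the population named after it.

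*Cxcl10* in KO over control had a log2 ratio of 1.26 in *Mki67* cells and -2.97 in *Fabp1*-high cells, a difference of 4.23. Without the cell with the highest *Cxcl10* count in each sum, the ratios were 1.43 and -2.30. The control *Mki67* value rests on 15 UMIs. In rescue over KO *Cxcl10* had -1.96 in *Mki67* cells and 1.45 in *Fabp1*-high cells, a difference of -3.41, and without the highest cells -1.86 and 0.62. In rescue over KO it also had 1.45 in *Fabp1*-high cells and -1.63 in *Ptprc*-positive cells, a difference of 3.08, and without those cells 0.62 and -1.52. *Cxcl10* in *Fabp1*-high cells therefore did not stay past 2-fold in rescue over KO once single cells were left out.

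*Ifit1* in KO over control had 2.04 in *Mki67* cells and -1.06 in *Fabp1*-high cells, a difference of 3.1, and without the highest cells 1.67 and -1.25. Against *Ptprc*-positive cells, where its KO over control ratio was -1.49, the difference was 3.53. Without the highest cells the *Ptprc*-positive ratio was -0.92, no longer past 2-fold. The control *Mki67* value rests on 2 UMIs and the KO *Ptprc*-positive value on 18 UMIs.

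*Isg15* in KO over control had 1.11 in *Mki67* cells and -1.86 in *Fabp1*-high cells, a difference of 2.97, and without the highest cells 0.85 and -1.77. The *Mki67* ratio therefore did not stay past 2-fold. The control *Mki67* value rests on 7 UMIs.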

How the results depend on the processing

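No paired analysis was possible because each genotype had 1 library and the labels carry no replicate numbers, and no replicate could be left out. Counts below are of the 31 genes at least 2-fold higher or lower, and 17 settings were run. Percentages in brackets give the share of all genes measured under the same setting that were past the fold in the same direction. How many of the 31 were measured changed with the setting and is not given, so a lost call can be a gene no longer measured. With thinning, all genes measured in *Ptprc*-positive cells in KO over control fell from 11244 to 7097. Of the genes past the fold in *Fabp1*-high cells, 8 of 15 in rescue over KO, 6 of 11 in KO over control and 5 of 9 in rescue over control stayed past it under every setting that gave a value. The stricter cell filter gave none for these cells, since it left fewer than 20 rescue and control cells. *Ubd* in rescue over KO turned to -0.84 (log2) in *Fabp1*-high cells with 10 to 20% mitochondrial UMIs.

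With median-ratio scaling KO over control had 2 lower (11.6%) and rescue over KO 4 lower (11.8%) in epithelium. The stricter cell filter gave 12 higher (19.4%) in KO over control in epithelium. In *Ptprc*-positive cells it gave 7 higher (9.58%) and 1 lower (6.05%) in rescue over control and 0 higher (25.8%) in KO over control. It gave 13 higher (9.62%) and 0 lower (17.6%) in rescue over KO there. It turned *Ifit1bl2* in rescue over control to 1.88 and *Igtp* in KO over control to 0.44 in epithelium, and *Ifit1bl2* in rescue over control to 0.35 in *Ptprc*-positive cells. With no mitochondrial limit there were 2 lower (10.8%) in KO over control in epithelium. *Ptprc*-positive cells then had 5 higher (9.39%) in rescue over control and 0 higher (15.5%) in KO over control. Equal weight per cell gave 9 higher (9.74%) in rescue over KO in epithelium. In *Ptprc*-positive cells it gave 9 higher (6.58%) and 1 lower (6.27%) in rescue over control. It gave 4 lower (9.12%) in KO over control and 1 lower (11.4%) in rescue over KO there, and *Ifit1bl2* in rescue over control turned to 0.47.

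In *Fabp1*-high cells, a *Fabp1* minimum of 2000 CPM gave 2 lower (4.10%) in rescue over control and 2 lower (8.45%) in rescue over KO. A minimum of 10000 CPM gave 5 higher (1.57%) and 2 lower (6.22%) in rescue over control. A pseudocount of 5 CPM gave 4 higher (0.828%) in rescue over control, 2 lower (6.74%) in KO over control and 3 higher (5.43%) in rescue over KO in epithelium. In *Fabp1*-high cells it gave 5 higher (0.835%) in rescue over control and 1 higher (4.82%) in KO over control. In *Ptprc*-positive cells it gave 4 lower (7.21%) in KO over control and 2 higher (2.34%) in rescue over KO. Thinned to equal depth, *Fabp1*-high cells had 4 higher (2.97%) in rescue over control, 4 lower (11.6%) in KO over control and 2 lower (13.0%) in rescue over KO, with *Gbp7* in rescue over control turned to -0.47. *Ptprc*-positive cells then had 5 higher (6.26%) and 0 lower (7.94%) in rescue over control. They had 0 higher (8.89%) and 0 lower (12.2%) in KO over control, and 3 higher (5.72%) and 0 lower (7.29%) in rescue over KO. *Igtp* in KO over control turned to 0.10 in epithelium and *Ifit1bl2* in rescue over control to 0.08 in *Ptprc*-positive cells.

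With at least 2 *Ptprc* UMIs and more immune than epithelial marker UMIs, there were 8 higher (7.26%) and 1 lower (7.29%) in rescue over control. This setting gave 0 higher (15.2%) and 3 lower (12.5%) in KO over control and 1 lower (12.8%) in rescue over KO, and *Apol10a* in rescue over control turned to -0.11. T cells only gave 9 higher (5.73%) and 0 lower (7.37%) in rescue over control, 0 lower (8.82%) in KO over control and 1 lower (3.81%) in rescue over KO. That setting turned *Rsad2* to 0.18 and *Apol10a* to -0.02 in rescue over control and *Rsad2* to 0.13 in KO over control. Without the highest 5% of cells there were 3 lower (4.82%) in rescue over control and 2 lower (8.73%) in rescue over KO in *Fabp1*-high cells. *Ptprc*-positive cells then had 5 higher (11.8%) in rescue over control, and *Ubd* in rescue over KO turned to -0.07 in epithelium and in *Fabp1*-high cells. The setting of 10 to 20% mitochondrial UMIs gave 5 higher (1.59%) and 2 lower (5.10%) in rescue over control and 2 lower (9.54%) in rescue over KO. The causes were not tested. The *Ptprc*-positive counts were the least stable, with 0 of 8, 2 of 10 and 1 of 6 genes past the fold under every setting in KO over control, rescue over KO and rescue over control.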
